A study of Rattus norvegicus with 12 samples.

Results

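The 7 ligands and 3 receptors described here belong to the epidermal growth factor (EGF) family, and all 10 were found by symbol, with a single entry each, in both deposited tables of rat kidney RNA. The control and adenine samples shared a table of 22132 entries, and the sham and UUO samples a table of 32623. Male SD rats of wild-type genotype were 8 weeks old when purchased and were then acclimatized. They received adenine (adenine group) or saline (control group) by gavage over 3 weeks, with an adenine dose of 220 mg/kg each day. In the surgical model the left ureter was tied off and kidneys were taken after 2 weeks (UUO group), while the sham group was operated on without ligation. RNA came from 3 rats per group, and the comparisons ask how these kidneys with renal fibrosis differ from undiseased ones.

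Ligands of the EGF family are made as membrane-anchored precursors and are released by metalloproteases of the ADAM family. EGF, transforming growth factor alpha (Tgfa) and amphiregulin (Areg) bind the EGF receptor (Egfr). Heparin-binding EGF-like growth factor (Hbegf), betacellulin (Btc) and epiregulin (Ereg) bind Egfr and also ErbB4, and neuregulin 1 (Nrg1) binds ErbB3 and ErbB4. ErbB2 has no known ligand and acts as the partner of the other receptors, and ErbB3 has little kinase activity of its own. In kidney, EGF is made in the thick ascending limb and distal convoluted tubule and is released into the urine, and Egfr signaling is known for its part in tubular repair and, when prolonged, in fibrosis.

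The genes that were downregulated in both models were Egf and Btc. RefSeq (build GRCr8) held promoter windows for 7 of the 10 members, each from 250 bases before to 50 bases after a transcript start. The 250 bases upstream of the start are shown for Egf and Btc, and for Egfr, the receptor of both, to set the promoter of the most strongly lowered member beside those of the others. CG dinucleotides, the sites of DNA methylation, are in capitals, and each sequence reads 5′ to 3′ on the strand of its gene. The Egf sequence lies at chr2:220976298-220976547 on the minus strand, the Btc sequence at chr14:16992418-16992667 and the Egfr sequence at chr14:95378376-95378625, both on the plus strand. The build behind the FPKM tables is not given in the sources used here, so these positions place the printed sequences only.
Egf: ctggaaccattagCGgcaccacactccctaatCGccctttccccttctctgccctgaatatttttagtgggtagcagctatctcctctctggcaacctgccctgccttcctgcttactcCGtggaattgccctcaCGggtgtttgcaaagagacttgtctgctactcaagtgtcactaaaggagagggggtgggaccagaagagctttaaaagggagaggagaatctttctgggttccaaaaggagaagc
Btc: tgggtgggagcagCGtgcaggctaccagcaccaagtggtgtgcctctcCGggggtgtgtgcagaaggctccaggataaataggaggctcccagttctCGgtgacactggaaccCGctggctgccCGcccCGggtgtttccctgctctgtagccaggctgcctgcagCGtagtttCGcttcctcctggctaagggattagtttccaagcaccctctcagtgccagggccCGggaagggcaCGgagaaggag
Egfr: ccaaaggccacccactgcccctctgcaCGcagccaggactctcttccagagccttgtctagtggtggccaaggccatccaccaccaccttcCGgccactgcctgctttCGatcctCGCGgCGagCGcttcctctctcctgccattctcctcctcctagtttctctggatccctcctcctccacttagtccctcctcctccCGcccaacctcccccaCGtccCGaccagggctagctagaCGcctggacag
The whole 300-base window of Egf held 5 CG dinucleotides, fewer than the median of 7 over 33469 promoters, and its GC content of 51.0% was near the median of 51.7%. The other 6 windows held 13 (Btc), 15 (Egfr), 20 (Areg), 25 (Erbb2), 35 (Hbegf) and 36 (Tgfa). A GC box, searched as GGGCGG on both strands, was present in the windows of Btc, Egfr, Areg, Erbb2 and Tgfa and in 33.1% of all promoters. Areg also held a TATA box (TATAAA, in 14.2% of promoters) and a cAMP response element (TGACGTCA, in 1.83%). No letters of an AP-1 site (TGACTCA, in 4.63%) or an E-box (CACGTG, in 6.42%) were found in any of the 7 windows, and neither Egf nor Hbegf held any of the 5 motifs. On rat chromosome 14 the RefSeq table places Btc, Areg, Ereg and Epgn, the gene for the ligand epigen, next to each other among protein-coding genes.

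Levels are given as FPKM, fragments per length of transcript and per mapped fragments of the library, which sets genes of unlike length on a common scale within a sample. The read depth behind each value is unknown. Changes are log2 fold changes of FPKM + 0.1 from limma with their standard error (SE) within a table, and the added 0.1 understates the change of genes with low FPKM. A gene was called higher or lower at a Benjamini-Hochberg adjusted p under 0.05 over all tested entries, and it was a DEG where the absolute log2 fold change was also at least 2. Each p value sets the change against the spread between 3 rats per group, which limma draws toward a trend over all tested entries. An exact permutation test of a single gene cannot fall below p = 0.1 in this design. In bulk kidney RNA, fewer cells of a type and less RNA per cell cannot be told apart.

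The summed FPKM was 564972 to 582725 in control and 468389 to 487770 in adenine samples, and 619664 to 630244 in sham and 528811 to 539011 in UUO samples. All tested entries had a median log2 fold change of 0.30 for adenine and 0.62 for UUO, and median-of-ratios scaling, which removes such a common shift, brought it to 0.014 and 0.032. Values under this scaling are given where they change the call of a member, and the counts of each gene list under it stand beside its own. Control replicate 2 stood apart from control replicates 1 and 3. Its FPKM summed to 35.1 over 6 podocyte markers (164 and 220 in the others). Slc12a3, the salt cotransporter of the distal convoluted tubule, was at 12.9 (197 and 164). Its sum over 10 markers of injured tubule was 765 (221 and 251). Most of that was the single gene Spp1, whose control values ranged from 49.5 to 552 FPKM. This sample was the highest or lowest control for Egf, Btc and Egfr, called members whose changes are given with and without it. So are the counts of gene lists that moved without it. It was also the highest control for Tgfa and Nrg1 and the lowest for Areg, Erbb2 and Erbb3. Without it their adenine log2 fold changes were 0.37, 0.11, -0.86, 0.29 and -0.32, in that order, and none was called. The counts without it were an alternative chosen after seeing the data. Over all 15029 tested entries of the adenine model, 5696 were higher and 2809 lower without it. Under median-of-ratios scaling 8626 of these entries were called, higher and lower together. Shares of all entries by direction under that scaling are not given here, so list counts under it have no such share beside them.

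In the adenine model 9 of the 10 members had enough expression to be tested, all but Ereg. Of these, 2 were higher (Hbegf and Egfr), 2 were lower (Egf and Btc) and 5 were not called. Over all 15029 tested entries, 39.6% were higher and 19.9% were lower. Hbegf was an upregulated DEG and Egf and Btc were downregulated DEGs, where 10.7% and 5.03% of all tested entries were upregulated and downregulated DEGs. The samples of the groups did not overlap for 6 of the 9 members, as for 68.0% of all tested entries. Without control replicate 2, again 4 members were called and 3 were DEGs. Median log2 fold change was 0.00078 over the 9 members and 0.30 over all entries.

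In the UUO model Ereg was again the untested member. Hbegf, Egfr and Tgfa were higher, Egf and Btc were lower and 4 members were not called, beside 56.1% higher and 14.4% lower of all 15043 tested entries. Egf was the only DEG among the 9, and 13.2% and 4.21% of all tested entries were upregulated and downregulated DEGs. Groups were apart without overlap for 5 members and for 75.7% of all tested entries. The members' median was 0.41, below the 0.62 of all entries.

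**Figure D1:**
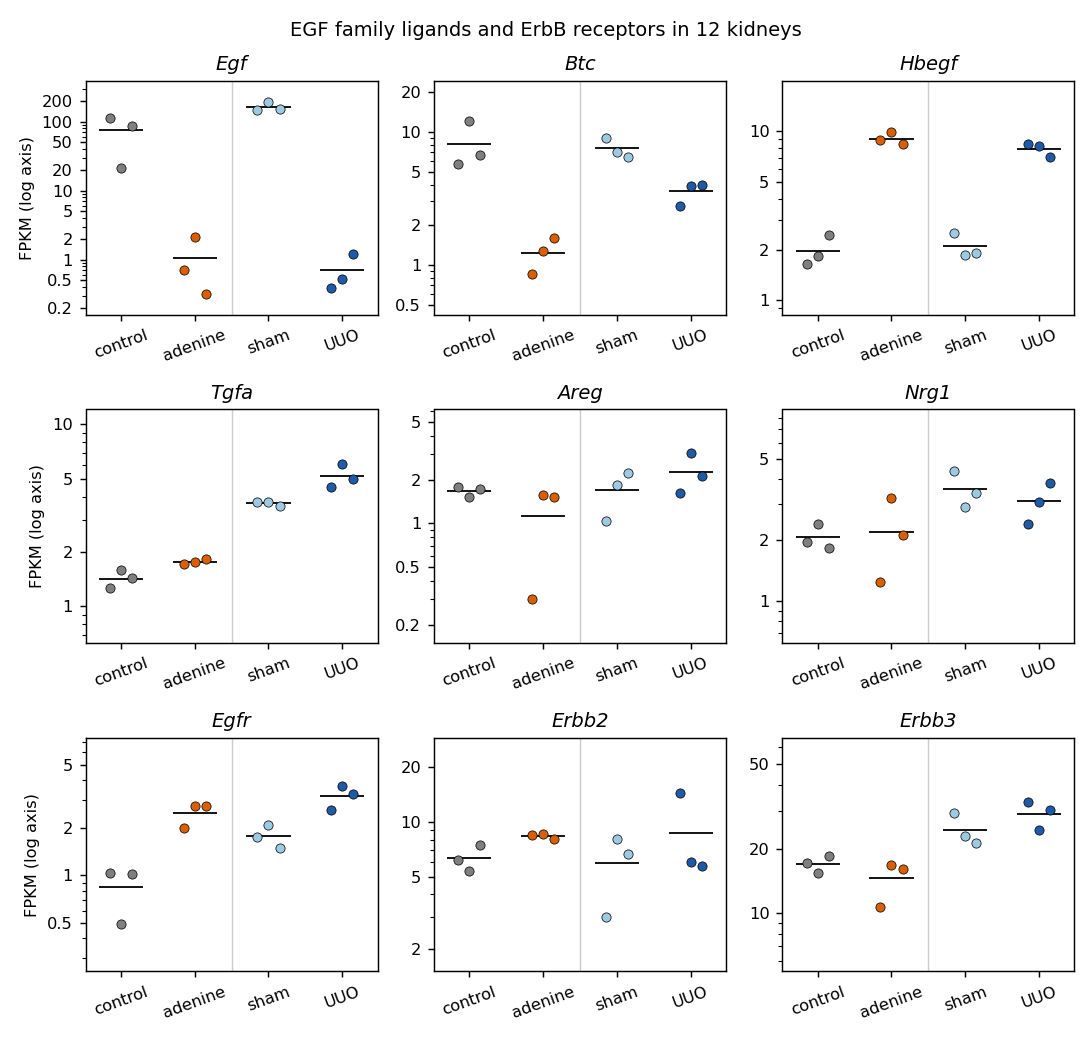
FPKM of the 9 tested members in each of the 12 samples on log axes, with a panel per gene, points for rats and bars for group means; the grey line separates the tables, which were normalized apart. Egf lies between 21.4 and 193 in undiseased kidneys and between 0.319 and 2.13 in diseased ones, and Hbegf lies between 1.65 and 2.50 and between 7.06 and 9.92.

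Egf was the member with the highest FPKM in every undiseased kidney. In the control samples its FPKM was 114, 21.4 and 87.2, and in the adenine samples 0.699, 2.13 and 0.319. The lowest control sample, replicate 2, still lay far above the highest adenine sample. Mean FPKM was 74.1 ± 47.5 (SD, n = 3) in the control and 1.05 ± 0.957 in the adenine group, 70.6-fold lower after adenine. The log2 fold change was -6.04 (SE 0.80, adjusted p = 0.000869), and without control replicate 2 it was -6.78 (adjusted p = 0.000895).

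In sham kidneys the FPKM of Egf was 145, 193 and 151, and in UUO kidneys it was 0.384, 0.517 and 1.22. The sham samples were close together and every UUO sample was at or below 1.22 FPKM. Mean FPKM fell from 162.9 ± 25.9 to 0.707 ± 0.448 (SD, n = 3), which is 230.5-fold lower. With a log2 fold change of -7.78 (SE 0.36, adjusted p = 1.42e-05), Egf had rank 6 from the lowest among the 15043 tested entries. In the adenine model it had rank 41 of 15029. The fold change of the UUO model was lower than that of the adenine model by 1.74 on the log2 scale (SE 0.88, 95% interval of the difference, UUO minus adenine, -3.63 to 0.15), and the difference did not pass the test (adjusted p = 0.154). Without control replicate 2 it was -1.005 (adjusted p = 0.364).

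Since Egf is made in distal tubule, it was set against 14 genes of the thick ascending limb and distal convoluted tubule. After adenine 5 of the 13 tested markers were lower and none was higher, also under median-of-ratios scaling. Without control replicate 2 the count was 8 lower and 1 higher, with Slc12a3 at -2.85 (adjusted p = 0.0373) in place of -1.59 (adjusted p = 0.293). The higher marker was the prostaglandin receptor gene Ptger3 (0.64, adjusted p = 0.0217, in place of 0.32, adjusted p = 0.353), named after its values were seen. After UUO 9 of 12 markers were lower and Ptger3 was higher (0.83, adjusted p = 0.0151). Of all tested entries, 19.9% were lower and 39.6% higher after adenine, and 14.4% were lower and 56.1% higher after UUO. Under median-of-ratios scaling 10 of the 12 were lower and none was higher, with Ptger3 at 0.23 (adjusted p = 0.413). The marker Umod, which encodes uromodulin, the main protein of normal urine, was at 1520, 1210 and 1590 FPKM in control and 215, 131 and 82.7 FPKM in adenine samples. Its log2 fold change of -3.43 (SE 0.34) was the lowest among the distal markers tested in the adenine model. Cldn10, a claudin of the thick limb, changed by -2.29 (SE 0.37) and Slc12a1, the cotransporter that loop diuretics block, by -1.65 (SE 0.39). In the UUO model the lowest marker was Calb1, the calcium-binding protein calbindin, at -4.93 (SE 0.63), followed by Umod at -4.47 (SE 0.34) and Slc12a3 at -3.21 (SE 0.35).

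The fold change of Egf was below that of each of the 13 and 12 tested distal markers. Within each sample, the log2(FPKM + 0.1) of Egf minus the mean of the same value over the listed distal markers was 2.17, 0.77 and 1.85 in control and -3.54, -2.27 and -4.10 in adenine samples. In sham samples it was 2.29, 2.46 and 2.18, and in UUO samples -4.34, -3.62 and -3.13. Egf thus stood above the marker mean in all 6 undiseased samples and below it in all 6 diseased ones. The group means differed by -4.90 after adenine and by -6.01 after UUO (two-sided exact permutation p = 0.1 in each, the smallest possible), while the marker mean itself differed by -1.15 and -1.77. Set against Umod alone, Egf differed by less, -2.62 after adenine and -3.31 after UUO. Pvalb, one of the 14, was at 0 in all adenine samples and at the lowest listed value in all sham samples, and Klhl3 was not analysed in the UUO model. Without control replicate 2 the value of the adenine model was -5.31.

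**Figure D2:**
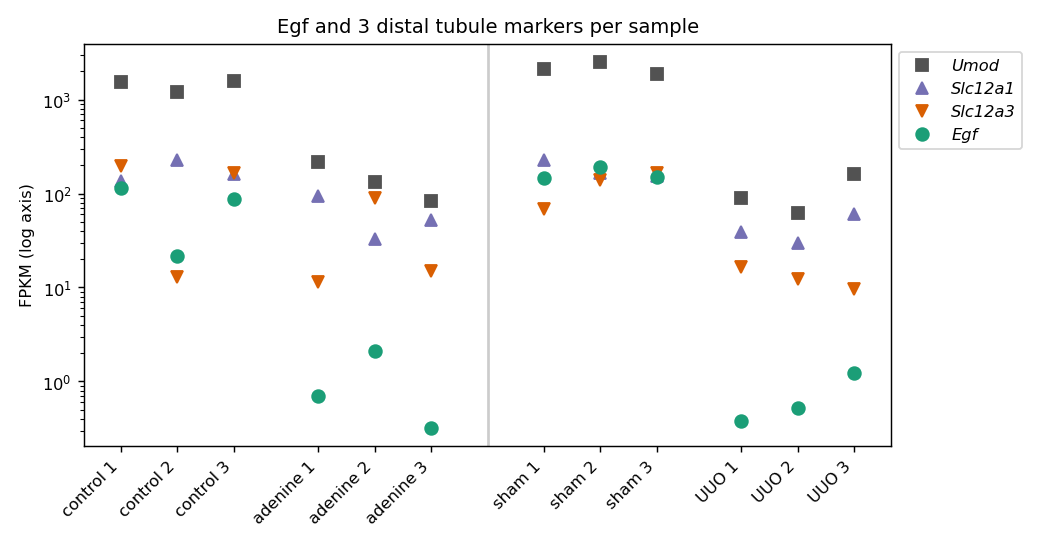
FPKM of Egf and of the distal tubule markers Umod, Slc12a1 and Slc12a3 in each of the 12 samples, on a log axis; the grey line separates the tables. Egf is near Slc12a1 and Slc12a3 in the sham samples and is the lowest of these genes in all 6 diseased samples, and control replicate 2 has low Egf (21.4) and Slc12a3 (12.9).

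The 5 genes whose pattern was most like that of Egf over the 12 samples were LOC108348190, Dnase1, Mep1b, Mbl1 and Dmrtc1c1. Likeness was the Euclidean distance of log2(FPKM + 0.1) after each table was centred on its mean, and it was 1.85 for LOC108348190 and 3.01 to 3.26 for the others, where the median over 13486 symbols was 13.2. LOC108348190 was at 139, 47.8 and 126 FPKM in control and 0.873, 1.43 and 0.5 FPKM in adenine samples. Its control replicate 2 was the lowest of that group, as for Egf. Dnase1 encodes a secreted nuclease and Mep1b a subunit of the brush border protease meprin, and their log2 fold changes were -5.06 and -6.96 after adenine and -6.61 and -6.95 after UUO. These points share libraries and the large fall from undiseased to diseased groups, so the distances are a description only.

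Btc followed Egf as the ligand with the next highest level in all 6 undiseased kidneys, at 5.66, 12 and 6.65 FPKM in control and 8.94, 7.04 and 6.42 FPKM in sham samples. After adenine it was at 0.843, 1.27 and 1.58, below all control samples. Mean FPKM fell from 8.12 ± 3.43 to 1.23 ± 0.368 (SD, n = 3), 6.60-fold lower, with a log2 fold change of -2.59 (SE 0.34, adjusted p = 0.000884). The highest control value was that of replicate 2, and without it the log2 fold change was -2.27 (adjusted p = 0.00188).

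In the UUO samples Btc was at 2.78, 3.91 and 3.98 FPKM. All lay below the sham samples, but less far than after adenine. Mean FPKM was 7.46 ± 1.31 in the sham and 3.56 ± 0.672 in the UUO group, 2.10-fold lower, and the log2 fold change was -1.05 (SE 0.20, adjusted p = 0.00308). Btc was the member whose change differed between the models, by 1.54 on the log2 scale (UUO minus adenine, SE 0.40, 95% interval 0.68 to 2.40, adjusted p = 0.0133), a test that 27.0% of 13486 symbols passed. Without control replicate 2 the difference was 1.22 (adjusted p = 0.0272).

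Hbegf, a ligand whose membrane-bound precursor is itself active, rose in both models. Its FPKM was 1.65, 1.83 and 2.43 in control and 8.84, 9.92 and 8.45 in adenine samples. In sham samples it was 2.50, 1.85 and 1.91, and in UUO samples 8.38, 8.17 and 7.06. Within each table, every diseased sample was above 7 FPKM and every undiseased sample at or below 2.50. The mean was 4.60-fold higher after adenine and 3.77-fold higher after UUO, and the log2 fold changes were 2.16 (SE 0.18, adjusted p = 0.000149) and 1.87 (SE 0.17, adjusted p = 0.000117). Median-of-ratios scaling gave 1.88 and 1.29, still called higher but below the DEG threshold in both models. The difference between the models was -0.29 (UUO minus adenine, SE 0.25, 95% interval -0.82 to 0.25, adjusted p = 0.415).

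Markers of other cells moved along with Hbegf. The FPKM of 10 macrophage markers summed to between 212 and 278 in control and between 6870 and 13600 in adenine samples, and to between 234 and 362 in sham and between 1710 and 2460 in UUO samples, and all 10 were higher in each model. Over 10 markers of injured tubule the sums were 221 to 765 and 11600 to 13100 in the adenine table and 383 to 630 and 10000 to 13400 in the other, with 8 and all 10 markers higher (8 and 9 under median-of-ratios scaling, which left all 10 macrophage markers higher in each model). Of all tested entries, 39.6% were higher after adenine and 56.1% after UUO. The sums are mostly single genes. Lyz2, named after its values were seen, was at 5960 to 12300 FPKM in adenine and 1220 to 1870 FPKM in UUO samples. Spp1 was at 9410 to 10300 FPKM in adenine and 7350 to 10300 FPKM in UUO samples. The sums are therefore no measure of how far all 10 markers of a list changed. None of these 20 markers was at the lowest listed value in every sample of a group. Their part in the level of Hbegf was not tested.

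Tgfa was at 1.26, 1.58 and 1.43 FPKM in control and 1.72, 1.75 and 1.82 FPKM in adenine samples. The adenine samples were all above the control samples by a small margin, and the log2 fold change of 0.30 (SE 0.18, adjusted p = 0.199, 95% interval -0.14 to 0.74) was not called. In sham samples Tgfa was at 3.73, 3.75 and 3.55 FPKM and in UUO samples at 4.55, 6.03 and 5.03 FPKM, again without overlap. The log2 fold change of 0.48 (SE 0.15, adjusted p = 0.0255) was called higher. This call was lost without UUO replicate 2 or 3 or any of the sham replicates (log2 fold changes of 0.37 to 0.50, adjusted p = 0.0512 to 0.0914), and the sign turned under median-of-ratios scaling (-0.11, adjusted p = 0.594) and quantile normalization (-0.29).

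Areg and Nrg1 were not called in either model. Areg was at 1.78, 1.52 and 1.74 FPKM in control and 0.298, 1.57 and 1.52 FPKM in adenine samples, and adenine replicate 1 was the low value. The log2 fold change was -0.80 (SE 0.56, adjusted p = 0.256, 95% interval -2.14 to 0.54), and without adenine replicate 1 it was -0.12. In sham samples Areg was at 1.04, 1.84 and 2.24 FPKM and in UUO samples at 1.63, 3.07 and 2.13 FPKM, and the groups overlapped (log2 fold change 0.41, SE 0.35, adjusted p = 0.321).

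Nrg1, the ligand of ErbB3 and ErbB4, was at 1.95, 2.41 and 1.83 FPKM in control and 1.25, 3.22 and 2.11 FPKM in adenine samples, so that the adenine samples lay on both sides of the controls. Its log2 fold change of 0.00078 had a 95% interval of -0.81 to 0.82 (adjusted p = 0.999). Nrg1 was at 4.38, 2.91 and 3.41 FPKM in sham and 2.40, 3.08 and 3.83 FPKM in UUO samples. The groups overlapped, with a log2 fold change of -0.20 (SE 0.24, adjusted p = 0.465). Median-of-ratios scaling gave -0.78 and a call (adjusted p = 0.0209), as did quantile normalization (-1.01, adjusted p = 0.00676).

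Ereg was at or near the lowest listed value throughout. It was at 0.0123 FPKM in control replicate 3 and at 0 in the other 5 samples of that table. In the sham and UUO table it was at 0.0248 and 0.0573 FPKM in UUO replicates 1 and 2 and at the lowest value, 0.0001, in the other samples. Epgn stood at the lowest value in all control and sham samples, at 0.0834, 0 and 0.0243 FPKM in adenine samples and at 0.0385, 0.275 and 0.0948 FPKM in UUO samples. Nrg2 was at 0.173, 0.0539 and 0.0516 FPKM in sham and 0.524, 0.485 and 0.627 FPKM in UUO samples, which did not overlap, and it stayed at or below 0.296 in the other table. Nrg4, a ligand of ErbB4, had means of 0.291 and 0.580 FPKM in the control and adenine groups and 0.119 and 0.229 FPKM in the sham and UUO groups, and Nrg3 was not analysed here. Epgn, Nrg2 and Nrg4 did not reach the minimum for a test, 0.5 FPKM in at least 3 of 6 samples, in either table.

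The makeup of the ligand transcripts followed from these changes. Egf made up 90.2%, 52.5% and 86.1% of the summed FPKM of the 7 ligands in control samples and 87.6%, 91.7% and 89.6% in sham samples. In adenine samples its share was 5.12%, 10.7% and 2.02%, and in UUO samples 1.91%, 2.08% and 5.25%. Hbegf had the largest share in all 6 diseased samples, with a mean of 56.1% after adenine and 35.0% after UUO, compared with 2.73% in control and 1.17% in sham samples. Tgfa had a mean share of 22.8% in UUO and 2.05% in sham samples. Over the controls the mean share of Egf was 76.3%, and 88.2% without replicate 2. Without Egf, the ligand FPKM summed to 15.3 ± 3.69 in control and 15.4 ± 2.35 in adenine samples, and to 18.5 ± 1.82 in sham and 22.0 ± 2.25 in UUO samples (SD, n = 3). These shares are descriptions of levels per length and were not tested.

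**Figure D3:**
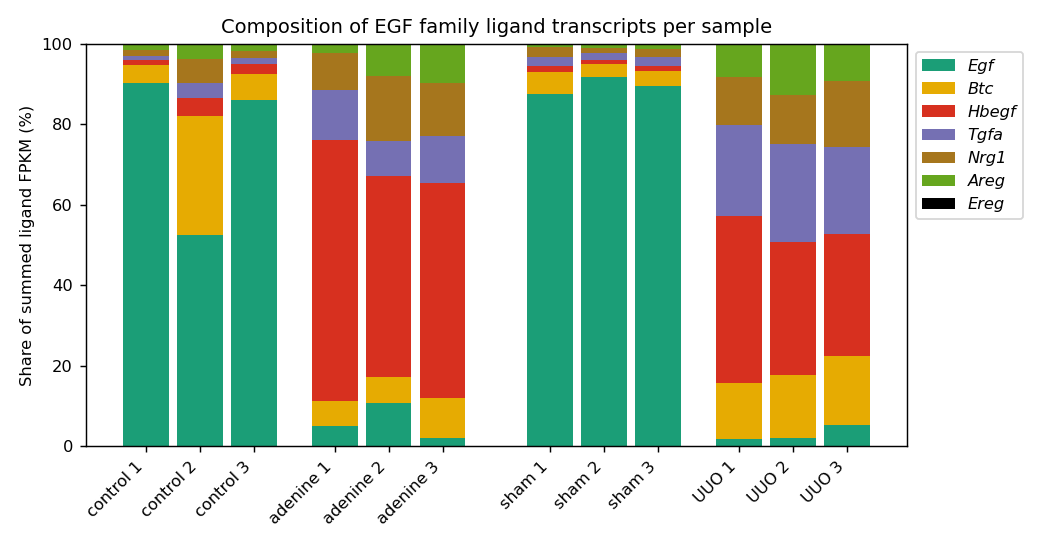
Share of each of the 7 ligands in their summed FPKM, in percent, for each of the 12 samples. Egf fills 52.5% to 91.7% of the bar in undiseased kidneys and 1.91% to 10.7% in diseased ones, where Hbegf has the largest share.

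Of the receptor genes Egfr, Erbb2 and Erbb3, Egfr had the lowest FPKM in every sample, undiseased or diseased. Its FPKM was 1.03, 0.494 and 1.02 in control and 2.00, 2.76 and 2.74 in adenine samples. The low control value was that of replicate 2, and all adenine samples lay above the controls. The mean was 2.94-fold higher (0.850 ± 0.309 to 2.50 ± 0.433, SD, n = 3), and the log2 fold change was 1.5 (SE 0.32, adjusted p = 0.00646). It was 1.19 without control replicate 2 (adjusted p = 0.00771) and 1.22 under median-of-ratios scaling (adjusted p = 0.0130).

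In sham samples Egfr was at 1.76, 2.07 and 1.5 FPKM and in UUO samples at 2.58, 3.70 and 3.28 FPKM, also without overlap. The log2 fold change of 0.80 (SE 0.21, adjusted p = 0.0127) was called, but under median-of-ratios scaling it was 0.23 (adjusted p = 0.408) and under quantile normalization -0.024. The change of the UUO model minus that of the adenine model was -0.69 (SE 0.38, 95% interval -1.52 to 0.13, adjusted p = 0.192), and without control replicate 2 it was -0.38 (adjusted p = 0.393).

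Erbb2 was at 6.16, 5.37 and 7.52 FPKM in control and 8.45, 8.58 and 8.08 FPKM in adenine samples. The groups did not overlap and the log2 fold change was 0.41 (SE 0.15, adjusted p = 0.056), just outside the threshold. Of 15 alternative fits 2 passed, without control replicate 3 (0.53, adjusted p = 0.0241) and with FPKM rescaled to the same sum (0.67). The change was smaller without control replicate 2 (0.29, adjusted p = 0.128). Median-of-ratios scaling gave 0.12 (adjusted p = 0.546) and quantile normalization 0.059 (adjusted p = 0.745). In sham samples Erbb2 was at 3.02, 8.07 and 6.68 FPKM and in UUO samples at 14.5, 6.02 and 5.73 FPKM. Sham replicate 1 and UUO replicate 1 were far from the rest of their groups, and the log2 fold change of 0.53 (SE 0.48, adjusted p = 0.349) was 0.11 without the former and 0.10 without the latter.

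Erbb3 had the highest FPKM of the 3 receptors in every sample. It was at 17.1, 15.4 and 18.5 FPKM in control and 10.7, 16.8 and 16.2 FPKM in adenine samples, which overlapped. The log2 fold change was -0.25 (SE 0.19, adjusted p = 0.301), and -0.54 with a call under median-of-ratios scaling (adjusted p = 0.0383). In sham samples Erbb3 was at 29.3, 22.9 and 21.4 FPKM and in UUO samples at 33.0, 24.4 and 30.3 FPKM (log2 fold change 0.25, SE 0.16, adjusted p = 0.199). Erbb3 held 68.4% to 72.5% of the summed receptor FPKM in control and 50.6% to 60.0% in adenine samples, and the share of Egfr went from a mean of 3.45% to 9.79%. In the UUO table the share of Erbb3 was 69.3% to 86.0% in sham and 65.9% to 77.1% in UUO samples. The share of Egfr was 5.07% to 6.26% in sham and 5.16% to 10.9% in UUO samples, and the groups overlapped.

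Erbb4, the receptor left out of these sums, was at 0.387, 0.116 and 0.258 FPKM in control and 0.391, 0.665 and 0.453 FPKM in adenine samples and was below the minimum for a test. In sham samples it was at 0.750, 0.963 and 0.913 FPKM and in UUO samples at 0.767, 0.776 and 1.09 FPKM. These groups overlapped, with a log2 fold change of -0.0062 (95% interval -0.61 to 0.60, adjusted p = 0.984). Median-of-ratios scaling gave -0.54 (adjusted p = 0.0996), and quantile normalization gave -0.96 and a call (adjusted p = 0.0161).

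**Figure D4:**
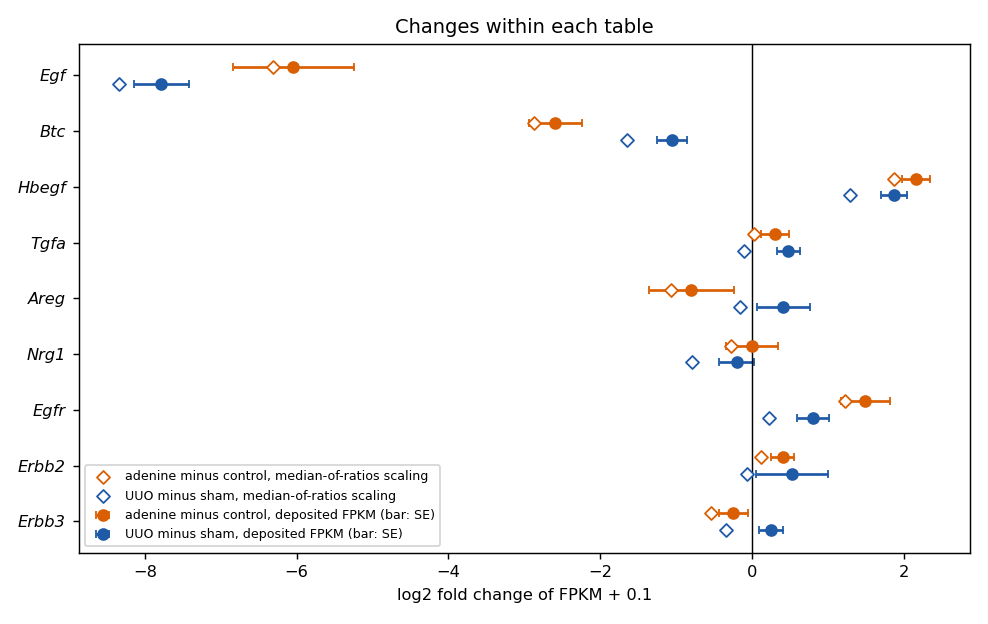
Log2 fold changes of the 9 tested members on the log2(FPKM + 0.1) scale, adenine minus control in orange and UUO minus sham in blue. Filled points are from the deposited FPKM with bars of 1 SE, open diamonds are after median-of-ratios scaling, and Tgfa, Areg, Erbb2 and Erbb3 move across 0 with the scaling in the UUO model.

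The proteases that release EGF family ligands, their partners and the protease inhibitor gene Timp3 were examined as a list of 9. For this and the following pathway lists, 39.6% of all tested entries were higher and 19.9% lower after adenine. After UUO 56.1% were higher and 14.4% lower. Of the 9 genes, 6 were higher and 1 was lower after adenine, and 8 were higher and none was lower after UUO. The lower gene, named after its values were seen, was Rhbdf1 (-0.28, adjusted p = 0.0461), and without control replicate 2 the list had 5 higher genes and no lower one. Under median-of-ratios scaling 4 were higher and 2 lower after adenine, and 5 were higher and 2 lower after UUO. The lower genes under this scaling, also named after their values were seen, were Rhbdf1 (-0.57) and Timp3 (-0.83, adjusted p = 0.0246) after adenine and Adam9 (-0.30, adjusted p = 0.0324) and Timp3 (-0.53, adjusted p = 0.00764) after UUO. From the deposited FPKM, Adam9 was called higher after UUO (0.30, adjusted p = 0.0381), so its sign turned. Adam17, the main sheddase of Tgfa, Areg and Hbegf, was at 7.25 ± 0.591 FPKM in the control and 25.6 ± 3.96 FPKM in the adenine group (SD, n = 3), a log2 fold change of 1.8 (SE 0.15, adjusted p = 0.000129). After UUO its log2 fold change was 1.57 (adjusted p = 2.59e-05). Rhbdf2, which encodes iRhom2, the protein that carries ADAM17 to the cell surface, changed by 1.75 after adenine and 2.65 after UUO. Adam12 changed by 2.38 and 2.96 from means of 0.383 and 0.273 FPKM, and Adam15 changed by 1.26 after adenine and 1.77 after UUO.

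Among 26 genes that carry the signal from the receptors, 18 were higher and 3 lower after adenine, and 20 were higher and 1 lower after UUO. Of all tested entries, 39.6% and 56.1% were higher. The median log2 fold change of the list was 0.81 after adenine and 0.73 after UUO, beside 0.30 and 0.62 over all entries. Under median-of-ratios scaling it was 0.52 and 0.13, beside 0.014 and 0.032. Under this scaling 13 and 10 of the 26 genes were higher and 3 and 4 were lower, and without control replicate 2 the adenine counts were 16 and 3. The adaptor Shc1 rose by 1.82 (SE 0.11) and 1.91 (SE 0.12) on the log2 scale, and the docking protein gene Gab2 by 3.20 (SE 0.38) and 1.71 (SE 0.14). Nras, a Ras GTPase, rose by 1.71 after adenine and 1.28 after UUO, and Pik3r1, a regulatory subunit of PI3 kinase, by 1.43 and 2.04. The lower genes, named after their values were seen, were Araf (-0.74), Hras (-0.64) and Map2k2 (-1.11) after adenine and Map2k2 (-0.43) after UUO.

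Genes whose products restrain ErbB receptors or the kinases downstream of them numbered 20, all tested in both models. Of these 15 were higher and 2 lower after adenine, and 14 were higher and 1 lower after UUO. The counts became 14 and 2 for adenine and 9 and 3 for UUO under median-of-ratios scaling. Socs3, an inhibitor of cytokine receptor signaling that also acts on receptor kinases, went from 0.871 ± 0.369 to 31.5 ± 0.759 FPKM after adenine and from 1.01 ± 0.270 to 25.5 ± 3.82 FPKM after UUO (SD, n = 3). The MAP kinase phosphatase gene Dusp4 rose by 2.73 and 2.75 on the log2 scale. Cbl, a ubiquitin ligase of Egfr, rose by 2.94 in the adenine model from a mean of 0.258 FPKM, and by 1.24 in the UUO model. Its relative Cblc rose by 1.94 after adenine and 2.62 after UUO. Errfi1, an inhibitor that binds the Egfr kinase domain and is named here after its values were seen, was the gene lower in both models, with means of 102 and 50.3 FPKM in the control and adenine groups (-0.99, adjusted p = 0.0240) and of 144 and 92.6 FPKM in the sham and UUO groups (-0.62, adjusted p = 0.0258). Spry4 (-0.64, adjusted p = 0.0382), also named after its values were seen, was the other lower gene in the adenine model.

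Genes that are switched on early after growth factor stimulation, by many receptors besides Egfr, numbered 16. After adenine 15 were higher and 1 lower, with a median log2 fold change of 2.18, and after UUO 11 of 15 tested were higher and 1 lower, with a median of 1.69. The higher genes numbered 12 and 11 under median-of-ratios scaling, and 13 after adenine without control replicate 2. Egr2 went from 0.195 ± 0.0526 to 25.6 ± 8.58 FPKM after adenine and from 0.211 ± 0.133 to 5.00 ± 0.896 FPKM after UUO (SD, n = 3). Egr3 stood at 0 in every control sample and at 4.42 ± 1.42 FPKM in the adenine group. Plaur, the urokinase receptor gene, rose by 4.34 and 3.15 on the log2 scale, and Myc rose by 2.86 after adenine and 3.01 after UUO. The lower gene in both models was Etv5, an ETS transcription factor named after its values were seen, at -0.79 (adjusted p = 0.00517) and -1.41 (adjusted p = 0.000872).

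**Figure D5:**
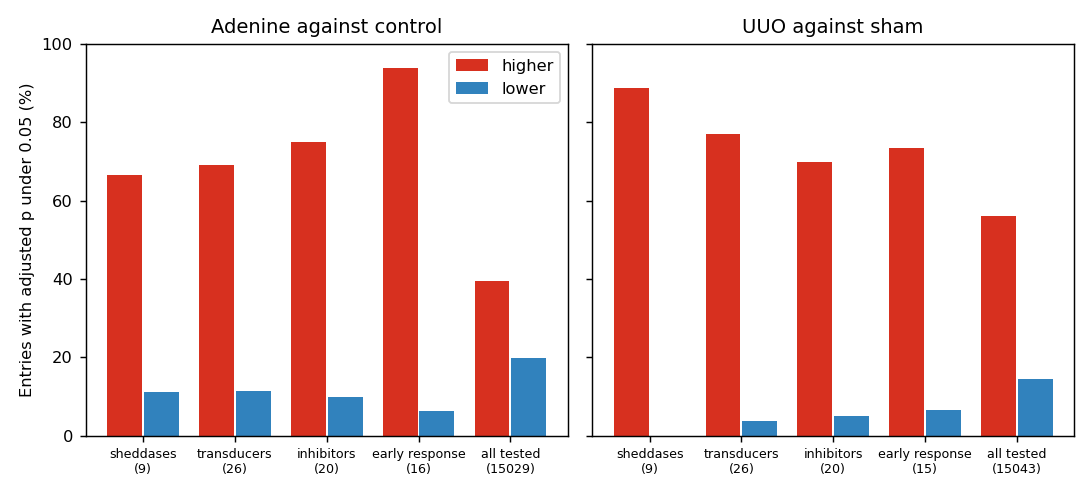
Percent of tested entries that were higher or lower at a limma adjusted p under 0.05, for 4 lists of the EGF receptor pathway and for all tested entries, in the adenine model (left) and the UUO model (right); numbers tested are in brackets. In every list more entries were higher than lower, as over all entries, where 39.6% and 56.1% were higher.

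Markers of other cell types of these kidneys were also called, not all in the same direction. Of all tested entries, 39.6% were higher and 19.9% lower after adenine, and 56.1% were higher and 14.4% lower after UUO. Of 6 podocyte markers, 1 was lower after adenine, and 1 was higher and 1 lower after UUO. Under median-of-ratios scaling 1 and 3 were lower and none was higher. Without control replicate 2, 1 was higher and 4 were lower after adenine. Of 9 fibroblast markers, 8 had an entry in the adenine table and all 8 were higher, and all 9 were higher in the UUO model (7 and 9 under median-of-ratios scaling, and 7 after adenine without control replicate 2). Of 8 urothelial markers, 2 were tested and not called after adenine, and 7 were tested and higher after UUO, also under median-of-ratios scaling. Krt5, Krt14, Upk1b, Upk2, Upk3a and Upk3b, named after their values were seen, were below 0.5 FPKM in every sham sample. They passed the filter only through the UUO samples, so their calls were nearly fixed in advance. The FPKM of the 8 markers summed to 0.647 to 2.88 in sham and 105 to 169 in UUO samples. Krt20 was at the lowest listed value in all sham samples. Proximal tubule markers were lower for 6 of 10 in the adenine and 7 of 10 in the UUO model (6 and 8 under median-of-ratios scaling). The proximal marker Slc5a12, named after its values were seen, was higher after adenine, at 8.81 ± 4.93 FPKM beside 0.733 ± 0.950 FPKM in the control group (SD, n = 3, log2 fold change 3.998, adjusted p = 0.0130). Collecting duct markers were lower for 7 of 9 and 9 of 9, for 8 and 9 under median-of-ratios scaling, and for 8 after adenine without control replicate 2. Of 7 endothelial markers tested, 3 were higher and 3 lower after adenine, and 4 were higher and none lower after UUO. The numbers that were higher lay near the shares of all tested entries. Median-of-ratios scaling gave 2 higher and 3 lower endothelial markers for adenine and 3 and 1 for UUO. Of 6 lymphoid and mast cell markers tested, 5 were higher after adenine and 6 after UUO, also under this scaling. Without control replicate 2 the adenine counts were 3 higher and 4 lower for endothelium and 6 higher for lymphoid and mast cells. The part of these cells in the levels of the ligands and receptors was not tested.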

How the data were processed

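Gene levels were deposited by the authors as FPKM, with 1 table per model and its undiseased group. Per the labels, poly(A) RNA was sequenced in paired ends from dUTP libraries. The submitters' processing notes name cutadapt 1.9, HISAT2 2.0.4, StringTie 1.3.4d, edgeR and DESeq2, and the genome build is not given in the sources used here. FPKM carry no counts, and low values gave no common step (the commonest ratio covered 0.484% to 6.04% of low values), so depth and counting error are unknown and no count test was run. Each table was fitted alone with limma 3.58.1 (R 4.3.3, lmFit, eBayes with trend) on log2(FPKM + 0.1) for entries that reached 0.5 FPKM in 3 or more of 6 samples, with Benjamini-Hochberg adjusted p over 15029 and 15043 entries. The difference between the models was divided by the root of the summed squared SE and referred to a t distribution with the degrees of freedom of both fits added, adjusted over 13486 symbols with a single entry tested in both tables. Entries below 0.5 FPKM in every undiseased sample of a table were tested only if the diseased samples were high, which nearly fixes a higher call. Besides the urothelial genes, this held for Cbl, Egr2, Egr3, Fosl1, Itgam and Cd163 after adenine. After UUO it held for Adam12, Egr2, Fosl1, Itgam, Cd163, Ms4a1, Postn and Lum. These genes are named after their values were seen. The fits were tested on simulated data. Levels are not compared between tables, which were normalized separately.

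All members and the rest of the family are named. Of every other list, at most 3 genes per table are named, those with the largest absolute log2 fold change among the called, besides genes said to be named after their values were seen. The members and lists were chosen with earlier results of these data known. Alternatives were other pseudocounts, filters and scalings, eBayes without the trend, the replicate number as a block, the ratio of means and each sample left out. Other steps used Python 3.11.15.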

Additional observations from a re-analysis of the deposited data

Results flagged for a closer look

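The fall of Btc differed between the models by the test of the difference itself. The log2 fold change was -2.59 after adenine and -1.05 after UUO, so that the value of the UUO model was higher by 1.54 (SE 0.40, adjusted p = 0.0133). All 3 adenine samples (0.843 to 1.58 FPKM) and all 3 UUO samples (2.78 to 3.98 FPKM) lay below the undiseased samples of their table. The difference passed under each of 21 alternatives, with values of 1.09 to 1.75 and adjusted p of 0.0101 to 0.0466. Adenine and UUO kidneys also differ in the time of sampling, 3 and 2 weeks, and in the table they come from, which cannot be told apart from the model.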

How the results depend on the processing

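Egf, Btc and Hbegf kept their direction and their call in all 15 alternative fits of each table, and Egfr in all 15 of the adenine table and 13 of 15 of the UUO table. With a pseudocount of 1, the adenine members included 1 DEG (Egf) in place of 3, and all DEGs numbered 1320 and 1465 in place of 2360 and 2613. The UUO members included 2 DEGs with FPKM rescaled to the same sum and without sham replicate 1 (1 to 2 with each sample left out). Egf relative to distal markers was -3.93 and -4.87 with a pseudocount of 1, and -2.62 and -3.31 against Umod alone, in the adenine and UUO models. With each sample left out it ranged from -5.41 to -4.50 and from -6.30 to -5.69, and the members called numbered 4 to 5 in each model.

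Signs turned for members that were not called, except Egfr and Tgfa in the UUO model. In that model, median-of-ratios scaling gave -0.11 for Tgfa, -0.16 for Areg, -0.061 for Erbb2 and -0.35 for Erbb3, and quantile normalization gave -0.29, -0.43, -0.15 and -0.13, and -0.024 for Egfr. With the same sum, Nrg1 was 0.016 and Erbb4 0.20, and with a sample left out Erbb4 ranged from -0.16 to 0.073. In the adenine model, quantile normalization gave -0.27 for Tgfa and -0.54 for Nrg1, and the same sum gave 0.022 for Erbb3. Nrg1 was -0.28 with median-of-ratios scaling, -0.0034 with a pseudocount of 0.01 and from -0.31 to 0.33 with a sample left out. The difference between the models turned to -0.13 and -0.020 for Tgfa and -0.18 and -0.21 for Erbb2 with median-of-ratios scaling and quantile normalization, and with a sample left out it ranged from -0.30 to 0.40 for Erbb2 and from -0.54 to 0.11 for Nrg1. The cause of these turns was not tested.

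With a replicate block the members called numbered 4 and 5 and those that were DEGs 3 and 1, and 7915 and 10578 entries passed overall. Groups are different rats that share only a number, and same-numbered samples correlated at -0.123 to -0.0487 in the adenine table and 0.05 to 0.105 in the UUO table, where each sample correlated best with its own number. The block changed no call of a member. Unknown read depth limits what can be said of Ereg, Epgn and the low neuregulins.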
